A study of Mus musculus with 7 samples.

Results

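The regions described here are short noncoding RNAs (ncRNAs) transcribed from 1 DNA strand in parts of the mouse genome crowded with genes. They come from a list of 1489 loci called *Tbx5*-dependent in the left atrium, the upper left chamber of the heart. By the paper, such ncRNAs had to lie away from known coding start sites. They were then narrowed to those with a coding gene changed in the same direction in a wide window. By its name the list had passed both filters, so start-site distances and links below hold only for loci so chosen. A locus was kept if no annotated gene was named for it (1287 loci), if the authors had not marked it as transcribed from both strands (990 loci), if it spanned under 500 bp (726 loci) and if 4 or more neighbouring genes were listed beside it. These steps left 314 loci, 21.1% of the list, called gene-dense short ncRNAs below. The 412 loci that passed every step but had fewer than 4 neighbour genes, called gene-sparse short ncRNAs, were the set most like them and served for comparison.

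Left atrial RNA came from 3 control and 4 *Tbx5* knockout libraries of male mice of mixed background, 6 to 8 weeks of age. By the study's methods all carried a Cre recombinase activated by tamoxifen and driven by the ubiquitous R26 promoter (*R26 CreERt2*), and the knockouts carried in addition *Tbx5 fl/fl*, whose excision was induced a week before collection. The deletion was thus not restricted to cardiomyocytes, and the labels do not say whether a library came from 1 mouse or from several. RNA was depleted of ribosomal and polyadenylated molecules and sequenced with its strand kept. The values analysed here are per locus and not per library, so the reads behind a locus and its spread between replicates are unknown, knockout could not be tested against control and the tissue could not be checked against markers. By its name the list holds loci of a single direction of change, but its labels disagree on which, some pointing to a rise in the knockout and some to a fall, so no direction was assigned.

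TBX5 is a T-box transcription factor needed for atrial gene expression and heart rhythm. Active enhancers are transcribed into RNAs that are often short, unspliced and lacking a poly(A) tail, and these enhancer RNAs serve as a readout of enhancer activity. In gene-dense stretches other transcripts without a poly(A) tail also arise, among them RNA made past the 3′ end of a gene after cleavage of its message and RNA that runs away from a promoter on the opposite strand. Processed pseudogenes, copies of a message inserted elsewhere in the genome, can be transcribed as well.

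Bases could be read for 19 of the 314 loci, those covered by an exon of GENCODE release M21, which is newer than the annotation behind the list. Among them 10 loci lay in exons of annotated pseudogenes, although the list names no annotated gene for them. All 10 were on the strand of the pseudogene, as were 114 of 120 such loci in the whole list. The following 6 are shown because they place copies of coding sequence among loci listed as unannotated ncRNA. Each is written in the direction of its transcript (GRCm38), and capitals mark bases that differ from the closest coding transcript in its alignment. The first and second are among the highest conservation scores, and the other 4 were chosen after their values were seen.

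XLOC_015943, chr13:97014988-97015128, minus strand, *Gm48609*: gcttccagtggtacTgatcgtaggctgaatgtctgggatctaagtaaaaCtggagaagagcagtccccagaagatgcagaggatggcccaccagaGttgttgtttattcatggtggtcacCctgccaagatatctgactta
XLOC_050755, chr7:18577885-18577939, minus strand, *Gm19091*: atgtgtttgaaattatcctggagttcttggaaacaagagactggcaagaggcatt
XLOC_056082, chr9:19690621-19690716, plus strand, *Gm7769*: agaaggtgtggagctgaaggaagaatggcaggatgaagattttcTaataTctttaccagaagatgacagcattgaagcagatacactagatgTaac
XLOC_042852, chr5:137928294-137928581, plus strand, *Gm8099*: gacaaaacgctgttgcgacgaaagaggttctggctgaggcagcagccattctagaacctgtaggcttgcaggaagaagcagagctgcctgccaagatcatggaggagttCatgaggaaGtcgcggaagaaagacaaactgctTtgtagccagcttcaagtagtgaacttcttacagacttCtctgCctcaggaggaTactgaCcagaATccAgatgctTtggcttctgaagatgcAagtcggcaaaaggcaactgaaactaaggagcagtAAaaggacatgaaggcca
XLOC_056029, chr9:13868816-13868979, plus strand, *Gm7588*: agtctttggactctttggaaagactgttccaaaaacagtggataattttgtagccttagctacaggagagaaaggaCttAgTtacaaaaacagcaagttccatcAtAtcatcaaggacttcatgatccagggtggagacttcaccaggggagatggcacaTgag
XLOC_016585, chr14:49805927-49806127, plus strand, *Gm8417*: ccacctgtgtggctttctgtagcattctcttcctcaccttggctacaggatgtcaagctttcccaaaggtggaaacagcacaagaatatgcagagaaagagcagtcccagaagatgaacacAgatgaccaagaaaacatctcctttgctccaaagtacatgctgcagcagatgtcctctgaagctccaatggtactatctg

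XLOC_015943 matched the coding sequence of *Rbbp4*, a histone-binding subunit of chromatin complexes, at 136 of 140 aligned bases (97.14%). XLOC_050755 matched *Trmt10a*, a tRNA methyltransferase, at all 55 of its 55 bases. XLOC_056082 matched *Bnip2* at 92 of 95 aligned bases, XLOC_042852 matched the kinetochore gene *Zwint* at 269 of 283, and XLOC_056029 matched *Ppib*, which encodes cyclophilin B, at 157 of 163. These matched genes lie at other places in the genome, and every matched base fell in their coding sequence.

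XLOC_016585 differed in that its pseudogene is annotated as unprocessed, those of the other printed loci as processed, and in that its match lay nearby. It matched *Armh4* at 200 of 210 aligned positions, with 1 differing base and the other differences being gaps, and *Armh4*, listed under its older symbol *3632451O06Rik*, is also the gene linked to this locus and lies 22.5 kb away on the other strand. Over all 10 pseudogene loci the identity to the closest coding transcript was at least 89.20%. In 6 of the 9 loci with printable bases an identical stretch at least as long as the 50-base reads was shared with the parent, the longest being 104 bases with *Zwint* and 98 with *Morf4l2*. Reads that fall wholly inside such a stretch fit locus and parent alike, and only XLOC_050755 was identical to its parent along its whole length. By the paper, reads were trimmed at their left end before alignment, and its stated TopHat settings, given for other libraries, allowed mismatches. Reads across a differing base may therefore fit the parent too, also at the other pseudogene loci. How the counting treated such reads cannot be told from the list, so the dependence of these loci on *Tbx5* is uncertain to an unknown extent.

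Most of the gene-dense short ncRNAs lay between genes. By GENCODE M21, 268 of 314 (85.4%, 95% Wilson interval 81.0% to 88.8%) overlapped no gene body, 14 lay in introns of coding genes, 13 in introns of noncoding genes, 10 in pseudogene exons, 8 in exons of noncoding genes and 1 in an exon of the coding gene *Naa16*, an acetyltransferase subunit. Of 13 stranded loci in coding introns, 12 were on the strand of the host gene, near the 22 of 24 in gene-sparse short ncRNAs and 85 of 89 in the whole list. The pseudogene share, 3.19%, was close to the 2.91% of gene-sparse short ncRNAs, and the interval of the difference ran from -2.29 to 3.13 percentage points (Newcombe, 95%). Intervals in this text cover counting error only and treat loci as separate, although neighbouring loci can be pieces of 1 transcript.

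Length was used to choose the loci and is given as a description. The median span was 126 bp (interval 119 to 134 bp), against 142.5 bp in gene-sparse short ncRNAs, with quartiles of 91.2 and 186 bp. No fewer than 97 loci were shorter than 100 bp and 243 were at most 200 bp long. The shortest were 51 bp, near the length of a single read, so a locus need not be a whole transcript. The limit of 500 bp cut through a sparse part of the range, since the 3 longest loci inside it spanned 403, 424 and 494 bp and the 3 shortest outside it 535, 549 and 551 bp. The longest, XLOC_036661 of 494 bp, lay 1120 bp before the 5′ end of *Casq2*, which encodes the calcium-storing protein calsequestrin of the cardiac sarcoplasmic reticulum, on the opposite strand.

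**Figure D1:**
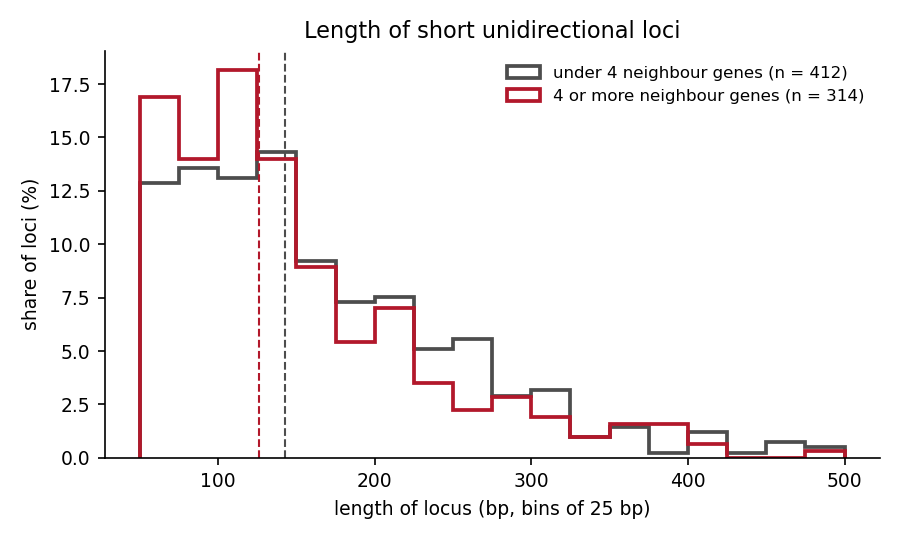
Length of short unidirectional loci in bins of 25 bp (x axis, bp), as the share of loci in each group (y axis, %), with dashed lines at the medians. The median of the 314 gene-dense loci (126 bp) lies below that of the 412 gene-sparse loci (142.5 bp).

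The surroundings matched the label of gene-dense. Neighbour genes per locus had a median of 6 (quartiles 4 and 9) and reached 40, 90 loci had exactly 4, and 66 had 10 or more. The 114 gene-sparse loci just outside the limit had 3. A median of 4 coding genes lay within 100 kb, against 1 for gene-sparse short ncRNAs, and the gap between the coding genes on either side measured 45.1 kb against 373 kb. The nearest coding start site was a median of 18.6 kb away (15.4 to 22.0 kb) and the nearest coding gene body 6.38 kb (5.35 to 7.47 kb). All of these follow from the choice of loci.

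Of the 5 loci with most neighbours, several lay in known gene clusters. XLOC_024516 on chromosome 17, with 40 neighbours, lay in the major histocompatibility region beside *Vars*, and its neighbours included the heat-shock genes *Hspa1a* and *Hspa1b*, 22.6 and 35.5 kb away. XLOC_014868 and XLOC_013440, with 29 and 25 neighbours, lay in the histone cluster of chromosome 13. XLOC_041342 on chromosome 4 and XLOC_024478 on chromosome 17 each had 24. Over all loci there were 2351 neighbour entries for 1900 different genes, of which 2277 entries were protein-coding in GENCODE M21, and 2312 of the 2340 that could be placed lay within 200 kb.

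Strand relative to nearby genes was not a criterion in the choice of loci, although the bidirectional mark that was one went with it, as given after the next counts. Of the 314, 209 stranded loci lay past the 3′ end of their nearest coding gene and 89 before its 5′ end. The rest lay inside it or had no strand. Among 137 loci within 10 kb past a 3′ end, 108 (78.8%, 71.2% to 84.8%) were on the strand of that gene. Among 51 loci within 10 kb of a 5′ end, 26 (37.7% to 64.1%) were. The downstream share stayed between 68.8% and 84.7% from 2 to 50 kb, and was 8 of 14 within 2 kb.

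A gene-dense locus lies between 2 close genes, so the gene behind it on its own strand was examined too. For each locus the coding gene flanking its 5′ side was found, the gene from which transcription on that strand would arrive. This gene was on the strand of the locus for 234 of 298 loci (78.5%, 73.5% to 82.8%), and within 10 kb for 131 of 157 (83.4%). The count is not separate from that by nearest gene. For 162 loci in sense past a 3′ end and 42 in antisense before a 5′ end, the gene at the 5′ side is the nearest gene itself. Their outcome was thus fixed by the earlier count. All 26 loci that lay in sense before the 5′ end of a gene within 10 kb also followed a gene of the same strand, as did 18 of the 29 loci antisense to the gene whose 3′ end was within 10 kb. Counted this way, the share was 83.8% in gene-sparse short ncRNAs and 84.3% in long unidirectional ones.

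The mark for bidirectional transcription, which the choice of loci did use, went with this orientation. Among 260 unannotated loci with the mark, 27 (10.4%, 7.24% to 14.7%) were on the strand of the gene at their 5′ side, and among 192 annotated loci 69 (35.9%) were. The high sense share of the gene-dense short ncRNAs is therefore not independent of having left out the marked loci, and the contrast with the marked loci is given without a test. The paper defines bidirectional ncRNAs as those transcribed from both strands. How this was called for a locus is not given in the sources used here, so transcription from 1 strand rests on the mark as deposited.

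**Figure D2:**
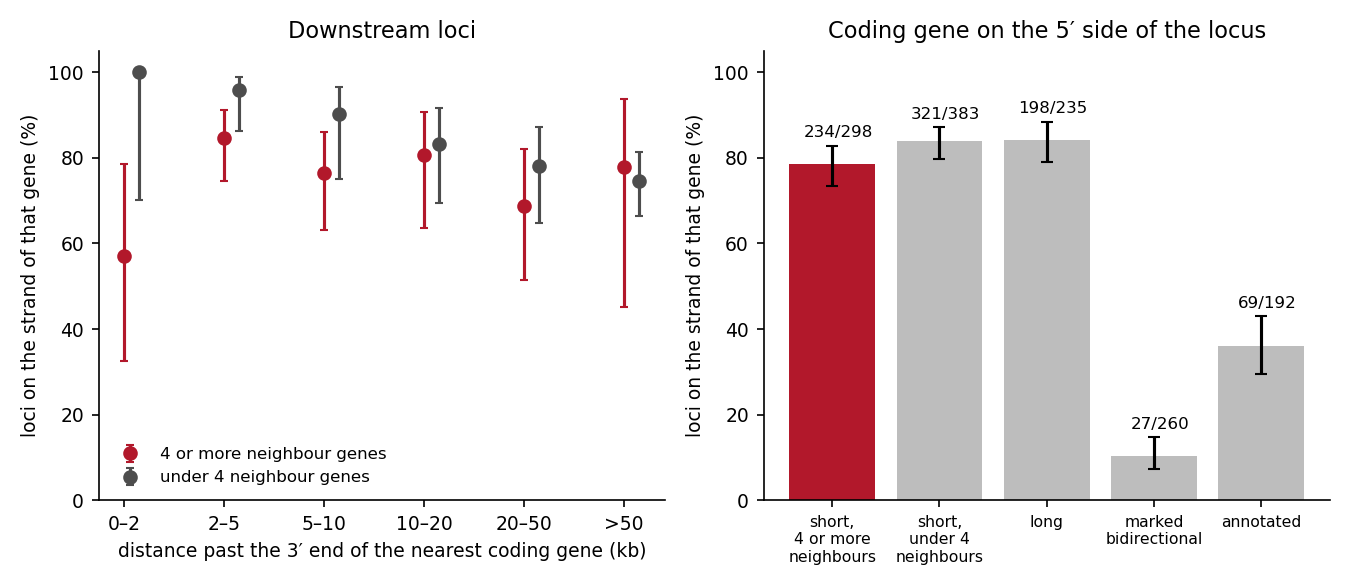
Left, share of loci on the strand of the nearest coding gene (y axis, %) by distance past its 3′ end (x axis, kb) for gene-dense and gene-sparse short ncRNAs. Right, share of loci on the strand of the coding gene at their 5′ side in each class of the list, with counts; bars on points and columns are 95% Wilson intervals. The 3 unidirectional classes lie between 78.5% and 84.3%, whereas loci with the bidirectional mark lie at 10.4%.

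Within 10 kb past a 3′ end, gene-dense loci were less often in sense than gene-sparse loci, at 78.8% against 94.4% (84 of 89), a difference of -15.6 percentage points (95% interval -23.8 to -6.43, and -26.7 to -2.77 when widened for the 6 comparisons made). The whole list stood at 80.4% (242 of 301) and long unidirectional loci at 73.5% (25 of 34). The gene-dense share was thus near that of the list, and the gene-sparse share was above it. The difference between gene-dense and gene-sparse loci depended on how the gene was picked. With the gene at the 5′ side within 10 kb the shares were 83.4% and 91.5%, and the interval of the difference, -15.8 to 0.876 points, included 0. It also included 0, at -18.6 to 0.485, when 3 rather than 4 neighbours set the groups apart. For loci before a 5′ end the interval, -32.8 to 13.9 points, was too wide to show a difference.

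Conservation was low for most loci. The deposited score is the mean phastCons value of a locus, from 0 for no detected constraint to 1, and 234 of the 314 loci had one. The median was 0.0659 (0.0500 to 0.0908), and 144 loci (61.5%) scored under 0.1. Medians were 0.0759 in the whole list, 0.0960 in long unidirectional loci and 0.0755 in bidirectional ones. The gene-dense score was thus not raised against the list. It was higher only than in gene-sparse short ncRNAs, whose median of 0.0393 was the lowest of these. Above the pooled median of 0.0486 lay 57.3% of gene-dense and 45.2% of gene-sparse loci. This is a difference of 12.1 points (95% interval 3.83 to 20.1, widened for 6 comparisons 0.975 to 22.8). The difference was 13.3 points (4.90 to 21.5) without pseudogene exons, and 14.1 (2.16 to 25.4) among loci within 10 kb of a coding gene. It fell to 3.37 points (-3.96 to 10.6) when loci without a score were counted as 0.

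Loci without a score were more common in the gene-dense group, at 80 of 314 (25.5%) against 60 of 412 (14.6%), a difference of 10.9 points (5.07 to 16.9). The missing values were not spread evenly over the list. All 10 gene-dense loci on the X chromosome and 16 of 26 on chromosome 9 had none, whereas 0 of 17 on chromosome 2 and 0 of 8 on chromosome 19 lacked one. The last rows of the list, all without a score, held 16 of the gene-dense and 10 of the gene-sparse loci, and without them the shares were 21.5% and 12.4%.

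Scores above 0.5 were held by 5.56% of scored gene-dense loci, 4.83% of gene-sparse ones and 6.17% of the whole list. Pseudogene exons made up 7 of 17 such gene-sparse loci and 52 of 78 in the whole list, so their weight here is not particular to gene-dense loci. The 13 gene-dense loci that scored above 0.5 were of both kinds, 7 in pseudogene exons and 6 between genes. Pseudogene exons made up 3 of the other 221 scored loci. The highest, 0.981, belonged to XLOC_015943 with its *Rbbp4* copy, and the next, 0.958, to a copy of *Pfn1*, which encodes the actin-binding protein profilin, on chromosome 18. XLOC_050755, the *Trmt10a* copy printed in full, scored 0.797. Conservation at such loci is measured at least in part on bases whose parent codes for protein. Of XLOC_027777, the *Morf4l2* copy that scored 0.668 over 424 bp, only 153 bases lay in the pseudogene exon and were aligned.

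Among the 6 intergenic loci above 0.5, XLOC_013440 scored 0.910 over 255 bp at chr13:21919256-21919510 in the histone cluster, and XLOC_016229 scored 0.864 over 119 bp at chr14:14372493-14372611, 16.5 kb past *Il3ra*, an interleukin-3 receptor gene. The others, named after their values were seen, were XLOC_035088 past *Alg14* (0.753), XLOC_019806 past *Rac2* (0.600), XLOC_033087 before the cytokine gene *Il1b* (0.595) and XLOC_039264 (0.568), whose linked gene *Tcea3*, a transcription elongation factor, lay 121 kb away. Loci in coding introns had a median of 0.0291 (n = 13) and intergenic loci one of 0.0654 (n = 195), while pseudogene exons stood at 0.682 (n = 10).

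**Figure D3:**
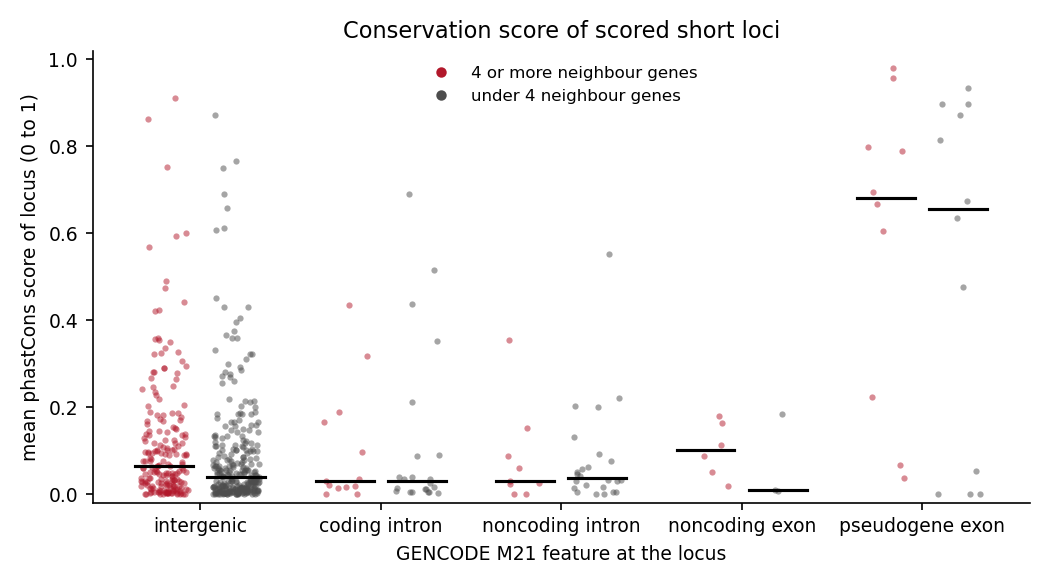
Mean phastCons score of each scored short locus (y axis, 0 to 1) by the GENCODE M21 feature at the locus (x axis), for gene-dense and gene-sparse short ncRNAs; each point is 1 locus, horizontal lines are medians, and the 1 locus in a coding exon in each group is left out. Most points lie under 0.2, and the pseudogene exons stand apart with a gene-dense median of 0.682.

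The list links some loci to neighbour genes that the authors called *Tbx5*-dependent. By the label of the links, these genes are of a single direction of change. A neighbour that is not linked may therefore still depend on *Tbx5*. Linked genes are drawn from the neighbours that the choice of loci counted, so the link shares are a description. A linked gene was given for 114 of 314 gene-dense loci (36.3%, 31.2% to 41.8%), for 85 of 412 gene-sparse loci (20.6%), for 77 of 202 annotated loci (38.1%) and for 384 of 1489 in the whole list (25.8%). Per listed neighbour the order was the other way, with 160 of 2351 entries linked (6.81%) against 88 of 936 (9.40%), and the whole list stood at 464 of 6656 (6.97%), close to the gene-dense share. Over all short loci, 18.1% of those with 1 or 2 neighbours and 43.5% of those with 7 to 9 had a linked gene, while the share of neighbours that were linked was 9.60% at 1 or 2 neighbours and 3.83% at 15 or more.

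**Figure D4:**
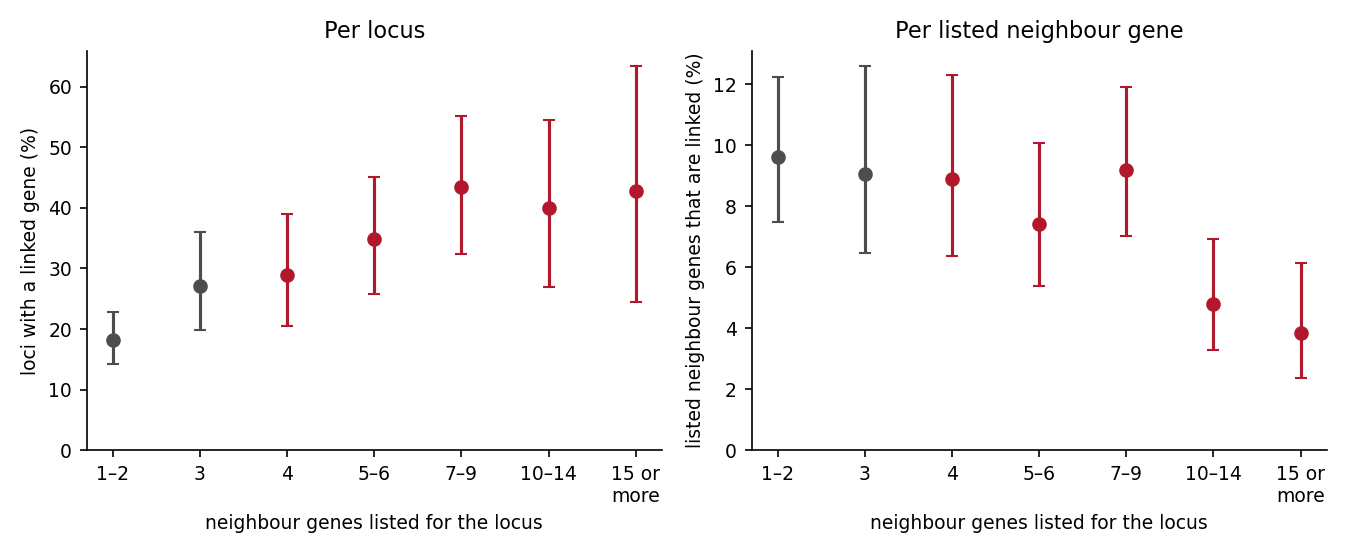
Share of short loci with a linked gene (left, %) and share of listed neighbour genes that are linked (right, %), by the number of neighbour genes listed for the locus (x axis); grey points are gene-sparse and red points gene-dense loci, with 95% Wilson intervals. Per locus the share goes from 18.1% at 1 or 2 neighbours to 42.9% at 15 or more, and per neighbour from 9.60% to 3.83%.

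The 160 links joined 114 loci to 121 genes, 42.3% of the 286 linked genes of the whole list. The gene-dense loci also held 1900 of the 3959 different neighbour genes of the list. Of those 1900 genes 6.37% were linked, and of the 3959 genes 7.22%. Of the 114 loci 81 had 1 linked gene and 33 had more. The linked gene was a median of 72.4 kb away (47.7 to 84.5 kb), at most 190.5 kb, and was the closest listed neighbour in 34 of the 160 pairs (21.2%). Neighbour genes of any kind, linked or not, were a median of 87.8 kb away (83.1 to 91.5 kb), and 2312 of 2340 lay within 200 kb. The largest linked distance is thus near the range of the listed neighbours. No share of closest neighbours was computed for genes that are not linked. Of the 22 pairs within 10 kb, 7 had the locus inside the gene, 10 had it past the 3′ end in sense, 3 before the 5′ end in sense and 2 before the 5′ end in antisense. Outside genes, 13 of 15 stranded pairs within 10 kb (62.1% to 96.3%) were in sense, and 61 of 135 (45.2%) beyond 10 kb. For the nearest coding gene within 10 kb, linked or not, the sense share was 78.8% past a 3′ end and 51.0% before a 5′ end. A high sense share close to genes is thus not particular to linked ones, and no share over all neighbours beyond 10 kb is given here.

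**Figure D5:**
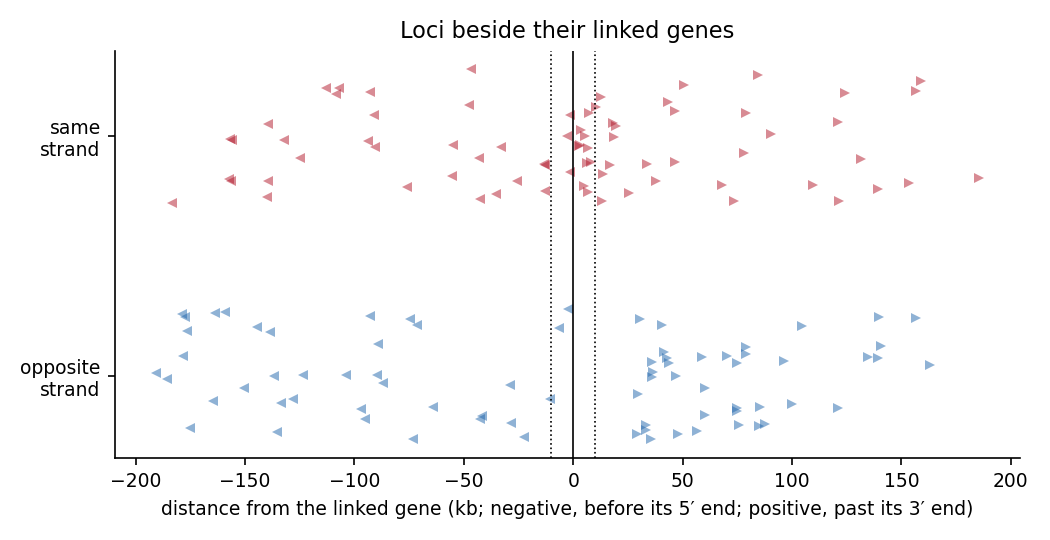
Each marker is 1 pair of a locus and a linked gene, so a locus with several linked genes appears more than once, placed by the distance between them (x axis, kb, negative before the 5′ end and positive past the 3′ end), in 2 rows by whether locus and gene share a strand; pairs with the locus inside the gene or without strand are left out, vertical scatter is for display, and dotted lines stand at 10 kb. Close to the genes most markers are in the same-strand row, 13 of 15 within 10 kb, and farther out 61 of 135 are. Neighbour genes that are not linked are not shown.

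Inside their linked genes lay 2 minus-strand loci in introns of *Gramd1c*, which encodes a sterol-transfer protein of the endoplasmic reticulum, at chr16:44034414-44034766 and chr16:44049751-44049864, with scores of 0.0341 and 0.317. A further 2 lay in introns of *Srpk2*, a kinase of splicing factors, at chr5:23623265-23623613 and chr5:23663049-23663203. All 4 were in the sense of the host gene. XLOC_018081 lay in *Naa16*, and the strandless XLOC_016151 lay inside both *Zfp934* and *Zfp935*, zinc finger genes that overlap there.

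In sense past the 3′ end of a linked gene within 10 kb were 10 loci. They followed *Spock2* (2.42 kb), a secreted proteoglycan, *Ube2v2* (3.22 kb), a partner of ubiquitin-conjugating enzymes, *Ptar1* (3.62 kb), *Spag9* (5.04 kb), a scaffold of JNK signalling, *Rmnd5a* (5.19 kb), a subunit of a ubiquitin ligase, *Zfp870* (6.39 kb), *Ttc37* (6.56 kb), *Erc1* (6.62 kb), *Mios* (7.28 kb), a regulator of mTORC1, and *Xirp2* (7.90 kb). XIRP2 is an actin-binding protein of the intercalated disc, where cardiomyocytes join end to end, and its locus XLOC_029353 at chr2:67534513-67534709 was 197 bp long with a score of 0.0453. The lengths of these 10 loci ran from 81 to 201 bp.

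Before the 5′ end of a linked gene in sense lay XLOC_036639, 1247 bp from *Cd101*, XLOC_060037, 1249 bp from *Taf1*, which encodes the largest subunit of TFIID, and XLOC_030435, 2711 bp from *Mga*. MGA is a partner of MAX that carries a T-box DNA-binding domain of its own. XLOC_060037, of 51 bp, was also linked to *Ogt*, the O-GlcNAc transferase. In antisense lay XLOC_050873, 2232 bp from *Zfp112*, and XLOC_042852, the *Zwint* copy, 6.68 kb from *Cyp3a13*.

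Links often shared genes. Of the 121 linked genes, 95 had 1 gene-dense locus, 17 had 2, 5 had 3 and 4 had 4. The 4 loci linked to *Hist1h4i*, a histone H4 gene, were the same 4 linked to the zinc finger gene *Zfp184*, and lay between 21855048 and 22021207 on chromosome 13. They measured 312, 255, 295 and 374 bp, and scored 0.118, 0.910, 0.123 and 0.178 in order of position. The 0.910 was on the plus strand and the other 3 on the minus strand.

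The 4 loci of *Cep57*, a centrosome gene, were on the plus strand of chromosome 9 between 41.7 and 84.7 kb from it, and 1 of them was the *Ppib* copy XLOC_056029. *Nhlrc1*, which encodes the ubiquitin ligase malin, was linked to a run of 4 plus-strand loci within 5.82 kb at chr13:46976005-46981828. These measured 81 to 134 bp and lay 30.7 to 36.4 kb past its 3′ end in antisense. Genes with 3 loci included *Ube2v2*, with minus-strand loci 3.22, 18.3 and 78.9 kb past its 3′ end in sense, and *Prkdc*, the catalytic subunit of DNA-dependent protein kinase, linked to the same 3.

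Nearby listed loci were less common than around gene-sparse short ncRNAs. Another listed locus lay within 10 kb of 67 gene-dense loci (21.3%) and of 184 gene-sparse loci (44.7%), a difference of -23.3 points (95% interval -29.7 to -16.5, widened for 6 comparisons -31.8 to -14.1). Without loci in clusters of 10 or more the gene-sparse share was 34.5% and the difference -13.2 points (-19.8 to -6.31). Neither difference is independent of the choice by neighbour genes, which also sets the room between genes for other listed loci. The median gap between flanking coding genes was 45.1 kb against 373 kb. Outside but within 10 kb of a coding gene lay 60.2% of gene-dense and 26.9% of gene-sparse loci. The differences are therefore a description. Grouped by strand at up to 10 kb, 254 gene-dense loci stood alone, 22 runs held 2 loci, 4 held 3 and 1 held 4. Of 34 neighbouring pairs of gene-dense loci within 10 kb, 33 were on 1 strand, as were all 120 such pairs of gene-sparse loci.

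Of the 4 runs of 3, one was linked to *Nrg2*, a neuregulin growth factor gene, across 8.95 kb between *Igip* and *Cystm1*, 128 to 136.8 kb from *Nrg2*. Another followed *Cyb5a*, which encodes cytochrome b5, and had no linked gene. The third lay between *Maml2* and *Mtmr2* and was linked to *Cep57*.

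The neighbour genes were read against lists of atrial gene groups. Calcium handling gave 6 neighbour genes of the 32 listed, and 1 of them, *Cacna2d2*, an auxiliary subunit of voltage-gated calcium channels, was linked, 74.7 kb from XLOC_058971. The others were *Casq2* (1.12 kb), *Jph2* (5.23 kb), which ties the sarcoplasmic reticulum to the cell membrane, *Cacna1h* (103 kb), *Casq1* (166 kb) and *Itpr1* (172 kb). The ion channel and conduction list gave none of 30, and potassium channel genes by symbol prefix gave 4 others, *Kcnj10* (12.3 kb), *Kcnj9* (57.1 kb), *Kcns1* (140.5 kb) and *Kcnk15* (163 kb), with 0 linked. Cardiac transcription factors gave *Hand2* (38.4 kb) and *Nkx2-5* (131 kb), neither of them linked.

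Sarcomere genes gave *Xirp2*, which was linked, *Smyd1* (61.1 kb), a muscle methyltransferase, and *Mybpc3* (92.9 kb), cardiac myosin-binding protein C. Energy metabolism gave *Ucp3* (58.2 kb), *Cpt1b* (139 kb) and *Atp5a1* (145 kb), none of them linked. The list of fibroblast and extracellular matrix genes gave *Fbn1* (1.79 kb), which encodes fibrillin 1, *Loxl1* (2.33 kb), *Timp2* (3.18 kb), *Tgfb1* (85.6 kb) and *Postn* (134 kb), and 0 of these 5 were linked. Of 2 collagen genes found by symbol prefix, *Col28a1* (50.9 kb) was not linked and *Col11a2* (175 kb) was. Of all 1900 neighbour genes 121 (6.37%) were linked, so 0 to 1 linked genes in lists of this size is near that share. Markers of immune cells gave 4 neighbours, of endothelium and smooth muscle 1 and of Schwann cells and neurons 0, with none linked.

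Larger families filled more of the neighbourhoods. Olfactory and vomeronasal receptor genes made up 121 of the 1900 neighbour genes, beside 28 loci, and 0 were linked. Histone genes made up 27 with 1 linked, ribosomal protein genes 22 with 0 linked and solute carriers 29 with 1 linked. Zinc finger genes, many of which encode DNA-binding repressors and which lie in clusters, taken by symbol prefix as the list gives the symbols, made up 61 neighbours beside 35 loci (11.1% of the 314), and 18 of them were linked (29.5%), against 103 of the other 1839 neighbour genes (5.60%). In the whole list 25 of 95 zinc finger neighbours were linked, so these 18 are most of them. With genes listed under older symbols added by their current ones, a choice made after seeing the data, 20 of 64 were linked (31.2%), against 101 of the other 1836 (5.50%), and other kinds of zinc finger gene such as *Zmym2* and *Zmym5* stayed among the others. The 18 were linked through 16 loci and are not independent of each other, as single loci such as XLOC_024410 and XLOC_055190 were linked to 3 zinc finger genes each.

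Promoters of the linked genes were searched for the T-box motif, since TBX5 is the deleted factor. RefSeq windows of 300 bases (GRCm38.p6, both strands, 250 bases before the start site) were found for 96 linked genes, with 113 windows. AGGTGTGA occurred in 2 of 113 (1.77%), in 1.51% of 1519 windows of other neighbour genes and in 1.28% of all 32851. The shorter AGGTGT occurred in 17.7%, 12.8% and 13.7%, with an interval of 11.8% to 25.8% for linked genes that includes both other shares. The 2 windows were those of *Naa15* and *Gramd1c*, and that of *Gramd1c*, the host of 2 loci, is shown with the match in capitals. It serves an internal start site, 46.9 kb inside the gene, and both loci lie before that start.

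*Gramd1c* promoter, chr16:44016387-44016686, minus strand: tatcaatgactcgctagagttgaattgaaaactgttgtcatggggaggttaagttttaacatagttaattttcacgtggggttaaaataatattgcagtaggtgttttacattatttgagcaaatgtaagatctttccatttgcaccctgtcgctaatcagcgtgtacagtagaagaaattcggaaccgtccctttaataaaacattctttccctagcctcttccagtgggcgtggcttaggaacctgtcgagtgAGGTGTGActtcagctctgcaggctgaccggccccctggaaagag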

How the data were processed

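Non-polyadenylated left atrial RNA was sequenced from 3 control and 4 knockout libraries, grouped by the genotype in the labels. By the labels and methods, the authors aligned 50-base single-end reads to mm10 with TopHat2 (versions 2.0.13 and 2.0.10 in the submitters' processing notes), assembled transcripts with Cufflinks, counted with featureCounts and tested with DESeq. The pair of deposited tables held the same values and 1 was used. The deposited score is a phastCons mean per locus that the authors averaged after removing bases without a value, and other deposited measures used were positions in bp. No column used held a level per library, so the read depth behind a locus is unknown. Linked genes were taken as given.

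Members and gene lists were chosen with earlier results of these data known. Named loci are the 10 closest linked pairs, linked genes with several loci, runs of 3 or more, the 5 highest scores, the longest and shortest locus, the 5 with most neighbours, the closest locus to each gene of the cardiac lists, and loci within 10 kb past a linked gene in sense. Details of 1 run of 3 are not reported here. Genes and features came from GENCODE M21 (GRCm38, the assembly of mm10) and distances run edge to edge. Pseudogene loci were aligned with BLAST 2.17.0 (E-value 1e-5) to 58745 coding transcripts. Shares carry Wilson intervals, medians order-statistic intervals and differences Newcombe intervals, at 95% and widened by Bonferroni over 6 comparisons. No p-value was computed. Steps were tested on simulated data with Python 3.11.15, numpy 2.4.6 and pandas 2.3.3. Alternatives changed the neighbour limit, the length limit, distances, clusters and missing scores.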

Additional observations from a re-analysis of the deposited data

How the results depend on the processing

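Of 44 alternatives, 39 kept direction, side of 0 and, for values without a test, the interval of the main value. The linked gene share of 36.3% was 43.2% with a limit of 6 neighbours and 28.3% with linked genes within 100 kb only. The difference in conservation score was 3.37 points when missing scores were set to 0. The difference in sense orientation was -11.2 points with a limit of 3 neighbours and -8.05 points with the gene at the 5′ side within 10 kb, both with intervals that include 0. The cause of these changes was not tested.

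The alternatives on pseudogene exons, loci near coding genes, large clusters, the 5′ side gene, chromosomes, linked neighbour entries and missing scores were chosen after seeing the data. Base composition, repeat cover and motifs within loci were planned and not run, because no genome sequence of the build was used here and bases were held for 6.05% of the loci only. No paired analysis was possible because the list holds no value per library, and no library was left out in turn.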
